A study of Mus musculus with 18 samples.

Results

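RNA of bone marrow cells carrying either of 2 NUTM1 fusions was compared with RNA of control cells on day 14, in 9 of the 18 libraries of a series on leukemia with rearranged NUTM1. The groups were cells with BRD9-NUTM1 (BN1), cells with AFF1-NUTM1 (AFFN1) and control cells, with 3 libraries each. All were iLS cells, a term the labels do not spell out, sorted as CD45.2-positive bone marrow cells of C57BL/6 mice. The labels name no promoter, vector, host or age for the fusions, do not say whether animals were pooled, and do not give the species of the NUTM1 part. Each group has 1 library under each of the codes 0716, 0730 and 0802. What the codes stand for is not given, and they were used only to match the libraries of the 3 groups. The mean of the fusion groups, each with equal weight, was set against control with the code as a block. A gene was described as shared when it passed this test (adjusted p under 0.05) and when each of the 6 fusion libraries differed from the control library of its code in the fitted direction. Of 11657 genes tested, 556 were shared, of which 234 were higher and 322 lower in the fusions.

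BRD9 is a subunit of a SWI/SNF chromatin remodelling complex, and AFF1 is a scaffold of the super elongation complex that releases paused RNA polymerase II. NUTM1 is normally expressed in the testis and binds the histone acetyltransferases p300 and CBP, and its rearrangement is known in NUT carcinoma and in infant B-cell precursor leukemia. Early B-cell precursors divide in response to interleukin 7 and then slow their growth while the RAG recombinase assembles immunoglobulin genes.

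In units of 1e6, total counts were 17.8 to 18.4 per library on day 14. Levels are given as counts per 1e6 counts (CPM) after TMM scaling, and in each list of 3 values the codes run 0716, 0730, 0802. The labels do not say that the libraries came from separate cultures or animals, so the p-values measure only the spread between these libraries, which may be technical. The AFFN1 and control libraries of code 0716 stood apart. Their summed level of 20 interferon response genes was 1345 and 1406 CPM, against 136 to 184 CPM in the other 7 libraries. Along the leading principal component (37.2% of the variance) their scores were 51.6 and 58.2, and those of the other 7 were -36.6 to -1.16. Without the 3 libraries of that code 512 genes passed and 496 were shared, and 288 of these were among the 556. The other codes mattered more. Without code 0730 72 genes passed and 71 were shared, 58 of them among the 556. Without code 0802 5 passed and 5 were shared, 4 of them among the 556. The B-lineage identity was visible in every library. The surrogate light chain gene Igll1 was at 1443 CPM or more in BN1, 1332 CPM or more in AFFN1 and 1251 CPM or more in control. Among 20 markers of T, NK and innate lymphoid cells, 8 had no read in any library, among them Cd3e, Cd8a and Bcl11b. The sum over 20 myeloid markers was 61.3, 35.5 and 48.0 CPM in BN1 and 24.2, 28.0 and 66.7 CPM in AFFN1, against 15.9, 23.9 and 34.1 CPM in control. Both fusions were above control in each code. This sum was not tested. Of the 20 markers 2 could be tested, and neither passed (median log2 fold change 0.85). Mouse Nutm1 had 0 reads in the 6 fusion libraries and 2 in control, too few to test. Neither mouse partner gene passed the test. Brd9 was at 47.6, 44.8 and 43.6 CPM in BN1 and 34.9, 42.1 and 47 CPM in control, and Aff1 at 174, 182 and 136 CPM in AFFN1 and 164, 181 and 165 CPM in control. In BN1 Aff1 was at 225, 223 and 203 CPM, above every AFFN1 and control library, but BN1 against control did not pass (adjusted p = 0.0682, edgeR). These reads cannot tell a fusion transcript from the normal gene.

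The fusions shared more falls than rises, and most shared changes were below 2-fold. In edgeR's quasi-likelihood test with the code as a block, 249 genes were higher (2.14% of those tested) and 351 lower (3.01%). The shared genes made up 2.01% of those tested for rises and 2.76% for falls. A common direction in all 6 differences was seen in 23% of all tested genes, called or not. It is a weak criterion, because the 6 differences rest on 3 control libraries. The median size of the fitted log2 fold change was 0.82 for the shared rises, of which 87 were over 2-fold and 16 over 4-fold. For the shared falls it was 0.60, with 66 over 2-fold and 19 over 4-fold. The median over all tested genes was -0.01. The 6 fusion libraries lay entirely above or below the 3 control libraries for 107 of 234 shared rises and 86 of 322 shared falls, and for 4.46% of all tested genes. The other shared genes overlapped between groups and stood out only within codes. The 44 genes that passed without a common direction were 15 rises and 29 falls, and in 43 of them 5 of the 6 differences had the fitted sign. Because the cells were measured in bulk, fewer cells with a transcript and less transcript per cell cannot be told apart. Calls depended heavily on the block and on single libraries. With no block 13 genes passed, all of them shared. Without the control library of code 0802 only 21 passed, without the BN1 library of code 0730 94, without the control library of code 0716 95, without the AFFN1 library of code 0802 142, without the control library of code 0730 209, without the AFFN1 library of code 0730 254, and without the BN1 library of code 0802 945.

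**Figure D1:**
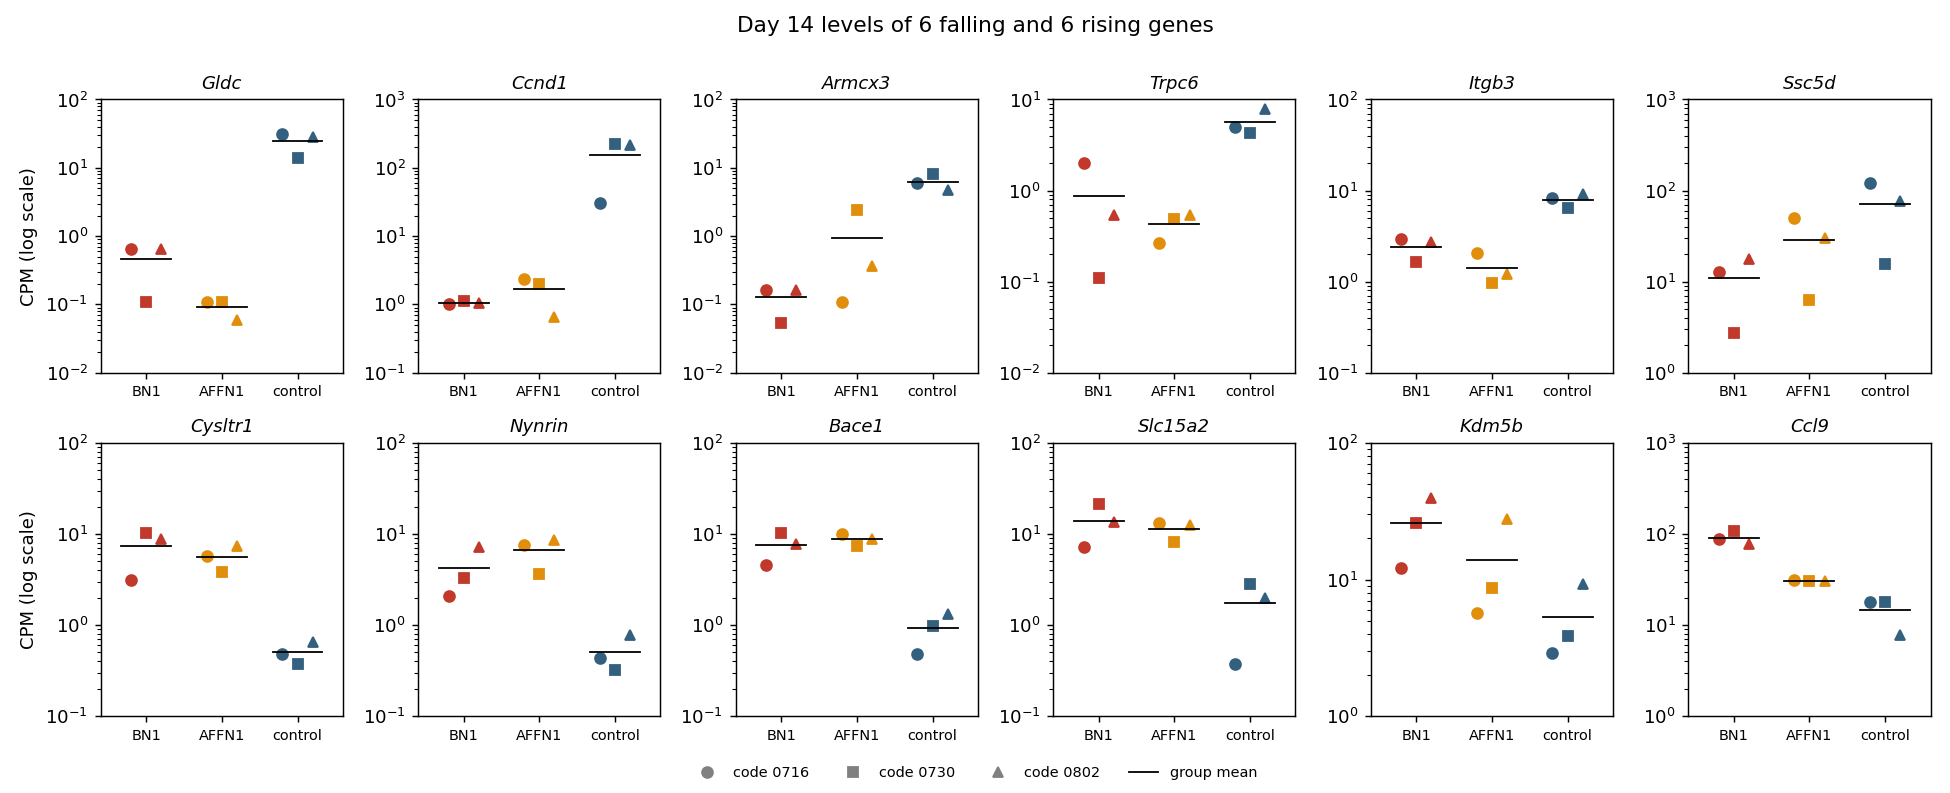
Levels on day 14 in CPM on a log scale for 6 genes that fell (upper row) and 6 that rose (lower row). Each point is 1 library, its shape gives the code, and the line is the group mean. Gldc lies at 0.06 to 0.651 CPM in the fusion libraries and at 14.1 to 30.9 CPM in control libraries, and Cysltr1 lies at 3.12 to 10.1 CPM in the fusion libraries and at 0.377 to 0.657 CPM in control libraries.

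A few genes that control cells expressed were close to absent in both fusions. The largest fall was in Gldc, the glycine decarboxylase of the mitochondrial glycine cleavage system (chromosome 19, 30098447 to 30175429, minus strand, GENCODE M21 on mm10). Gldc was at 0.646, 0.108 and 0.651 CPM in BN1 and 0.107, 0.108 and 0.06 CPM in AFFN1, against 30.9, 14.1 and 28.3 CPM in control. Every fusion library was far below every control library, with 31 reads in all 6 fusion libraries and 1307 in the 3 control libraries. The fitted log2 fold change was -6.83 ± 0.25 (SE), a 114-fold lower level in the fusions (adjusted p = 5.52e-07, edgeR). The sequence around its start site is shown because it had the smallest adjusted p. RefSeq gives 250 bases before and 50 from the start (build GRCm38.p6, chr19:30175392-30175691, minus strand), with capitals marking each CANNTG, the E-box letters that E proteins of the B lineage recognise.
Gldc: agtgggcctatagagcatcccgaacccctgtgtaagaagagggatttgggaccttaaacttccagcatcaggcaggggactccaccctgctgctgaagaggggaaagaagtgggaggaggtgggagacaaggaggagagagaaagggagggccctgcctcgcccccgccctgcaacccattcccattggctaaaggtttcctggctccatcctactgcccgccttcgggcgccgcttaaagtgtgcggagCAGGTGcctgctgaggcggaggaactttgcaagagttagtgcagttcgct
These letters hold 1 CANNTG, beginning at the first transcribed base. Both strands read the same for this motif, and 72.3% of the 32851 promoters in the same table hold at least 1, with a median of 1, so holding 1 is usual.

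Ccnd1, which encodes cyclin D1, a partner of the kinases that drive cells into S phase, was at 1.02, 1.14 and 1.03 CPM in BN1 and 2.36, 2.01 and 0.66 CPM in AFFN1, against 30.7, 219.8 and 218 CPM in control. The groups did not overlap, although control itself spread widely. The log2 fold change was -6.58 ± 0.71 (SE, adjusted p = 0.0259, edgeR). The unnamed gene 5830444B04Rik was at 0.269, 0.379 and 0.38 CPM in BN1 and 0, 0 and 0.06 CPM in AFFN1, against 1.24, 10.6 and 11.8 CPM in control (log2 fold change -6.17 ± 0.50 SE, adjusted p = 0.000831). Only 20 reads fell on it in the 6 fusion libraries, so the size of its fold is poorly known. Armcx3, a protein of the mitochondrial outer membrane, was at 0.162, 0.0542 and 0.163 CPM in BN1 and 0.107, 2.38 and 0.36 CPM in AFFN1, against 5.94, 8.09 and 4.78 CPM in control. AFFN1 of code 0730 was the one fusion library with over 1 CPM. The unnamed gene D630039A03Rik was at 0.0537 to 1.08 CPM in the fusion libraries and 4.26 to 10.7 CPM in control. Trpc6, a calcium-permeable channel, was at 0.108 to 1.99 CPM in the fusion libraries and 4.26 to 7.89 CPM in control. D630039A03Rik and Trpc6 had log2 fold changes of -3.75 ± 0.48 and -3.27 ± 0.54 (SE, adjusted p = 0.00969 and 0.0245, edgeR). Gldc passed without any single library and without any code. Of these 6 genes, 2 passed without the control library of code 0802 (adjusted p up to 0.169), 3 without AFFN1 of code 0802, 4 without control of code 0730, and 5 without BN1 or without AFFN1 of code 0730. Ccnd1 was among those lost each time.

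The next largest falls included Itgb3, Ssc5d, Lif and Pdcd1. Itgb3, the integrin beta 3 chain, was at 2.91, 1.63 and 2.71 CPM in BN1 and 2.04, 0.976 and 1.2 CPM in AFFN1, against 8.2, 6.47 and 9.08 CPM in control. No fusion library reached a control library, and the log2 fold change was -2.13 ± 0.22 (SE, adjusted p = 0.00223, edgeR). It was the 1 integrin of 12 tested that passed, against 3.01% of all tested genes called lower. Ssc5d, a soluble scavenger receptor, was at 12.7, 2.71 and 17.7 CPM in BN1 and 50.3, 6.23 and 30.1 CPM in AFFN1, against 121, 15.8 and 76.5 CPM in control. The groups overlapped, because all 3 libraries of code 0730 were low, but within each code control was highest and BN1 lowest (log2 fold change -1.97 ± 0.18 SE, adjusted p = 0.00223). Lif, a cytokine that signals through gp130, followed the same order within codes 0716 and 0730. It was at 0.969, 0.217 and 0.543 CPM in BN1 and 5.05, 0.325 and 0.36 CPM in AFFN1, against 20.1, 2.16 and 2.75 CPM in control. Pdcd1, the inhibitory receptor PD-1, was at 0.538, 0.596 and 2.44 CPM in BN1 and 8.81, 1.73 and 2.7 CPM in AFFN1, against 21.2, 5.18 and 17.3 CPM in control. Plxna2, a semaphorin receptor, was at 13.2, 4.77 and 4.07 CPM in BN1 and 42.3, 14.8 and 8.52 CPM in AFFN1, against 47.9, 55.6 and 41.9 CPM in control. In AFFN1 of code 0716 it was close to control. The adhesion protein gene Kirrel, the glycosyltransferase gene B3gnt3, the predicted gene Gm266 and the T-cell receptor gamma constant gene Tcrg-C3 fell by 2.08, 2.03, 2.15 and 3.17 on the log2 scale. A second gamma constant gene, Tcrg-C2, was also lower, at a mean of 78.5 CPM in BN1, 232 CPM in AFFN1 and 405 CPM in control, and was named after its values were seen. The 2 genes are near copies, so reads may have been shared between them. Of these 9 named falls, Itgb3, Gm266, Kirrel and B3gnt3 had groups that did not overlap. Of the 9 (Tcrg-C2 not counted), 3 passed without the control library of code 0802 (adjusted p up to 0.192), 4 without control of code 0716, 5 without BN1 of code 0730, 6 without AFFN1 of code 0802 or control of code 0730, 7 without AFFN1 of code 0730, and 8 without BN1 of code 0716, and Ssc5d passed without any single library.

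Among shared genes with at least 5 CPM in the higher side, the 3 largest rises were in Cysltr1, Nynrin and Bace1. These were at 1.31 CPM or less in control. Mpped2, below that cut with a mean of 2.18 CPM in the fusions, had a larger log2 fold change of 4.57 ± 0.61 (SE). Cysltr1, a receptor for cysteinyl leukotrienes, was at 3.12, 10.1 and 8.9 CPM in BN1 and 5.69, 3.79 and 7.44 CPM in AFFN1, against 0.486, 0.377 and 0.657 CPM in control. The level was 12.5-fold higher in the fusions, a log2 fold change of 3.64 ± 0.44 (SE, adjusted p = 0.00565, edgeR). Nynrin was at 2.1, 3.31 and 7.22 CPM in BN1 and 7.63, 3.63 and 8.58 CPM in AFFN1, against 0.432, 0.324 and 0.777 CPM in control. Bace1, the beta-secretase that cleaves the amyloid precursor protein, was at 4.58, 10.3 and 7.76 CPM in BN1 and 9.93, 7.48 and 8.76 CPM in AFFN1, against 0.486, 0.971 and 1.31 CPM in control. In these 3 genes every fusion library was above every control library. The fitted log2 fold changes of Bace1 were 3.02 in BN1 and 3.31 in AFFN1. Slc15a2, a peptide transporter, was at 7.27, 21.4 and 13.5 CPM in BN1 and 13.4, 8.18 and 12.7 CPM in AFFN1, against 0.378, 2.86 and 1.97 CPM in control. Stag3, a cohesin subunit used in meiosis, was at 9.31, 16.1 and 12 CPM in BN1 and 50.6, 24.9 and 29.9 CPM in AFFN1, against 6.26, 1.89 and 2.21 CPM in control. Its AFFN1 libraries were all above its BN1 libraries, but the difference between the fusions did not pass (adjusted p = 0.206, edgeR). Maf, a bZIP transcription factor, was at 21.2, 23.5 and 16.3 CPM in BN1 and 4.83, 7.64 and 17.6 CPM in AFFN1, against 1.62, 3.67 and 4.54 CPM in control. Kdm5b, a histone demethylase, was at 12.2, 26 and 39.8 CPM in BN1 and 5.69, 8.62 and 27.6 CPM in AFFN1, against 2.91, 3.88 and 9.2 CPM in control. Its groups overlapped, because AFFN1 of codes 0716 and 0730 lay below control of code 0802, while each pair within a code moved up (log2 fold change 1.80 ± 0.19 SE, adjusted p = 0.00325). Tnfrsf19, a receptor of the tumour necrosis factor family, was at 188, 258 and 159 CPM in BN1 and 89.9, 260.0 and 152 CPM in AFFN1, against 27.7, 100.2 and 52.2 CPM in control. The focal adhesion gene Zyx was at 17.8 to 73 CPM in the fusion libraries and 11.7 to 15.5 CPM in control. Of the other rises, Rbpms, Colq, D130017N08Rik, Ppp1r32, Tnfrsf19 and Nxph4 had log2 fold changes of 1.70 to 1.84. Zyx, at 1.66, was the smallest of the 15. Of these 15, 2 (Bace1 and Ccl9) passed without the control library of code 0802 (adjusted p up to 0.231), 9 without control of code 0730, 10 without AFFN1 of code 0802, 11 without BN1 of code 0730, without AFFN1 of code 0730 or without control of code 0716, 13 without BN1 of code 0716 and 14 without BN1 of code 0802 or without AFFN1 of code 0716.

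**Figure D2:**
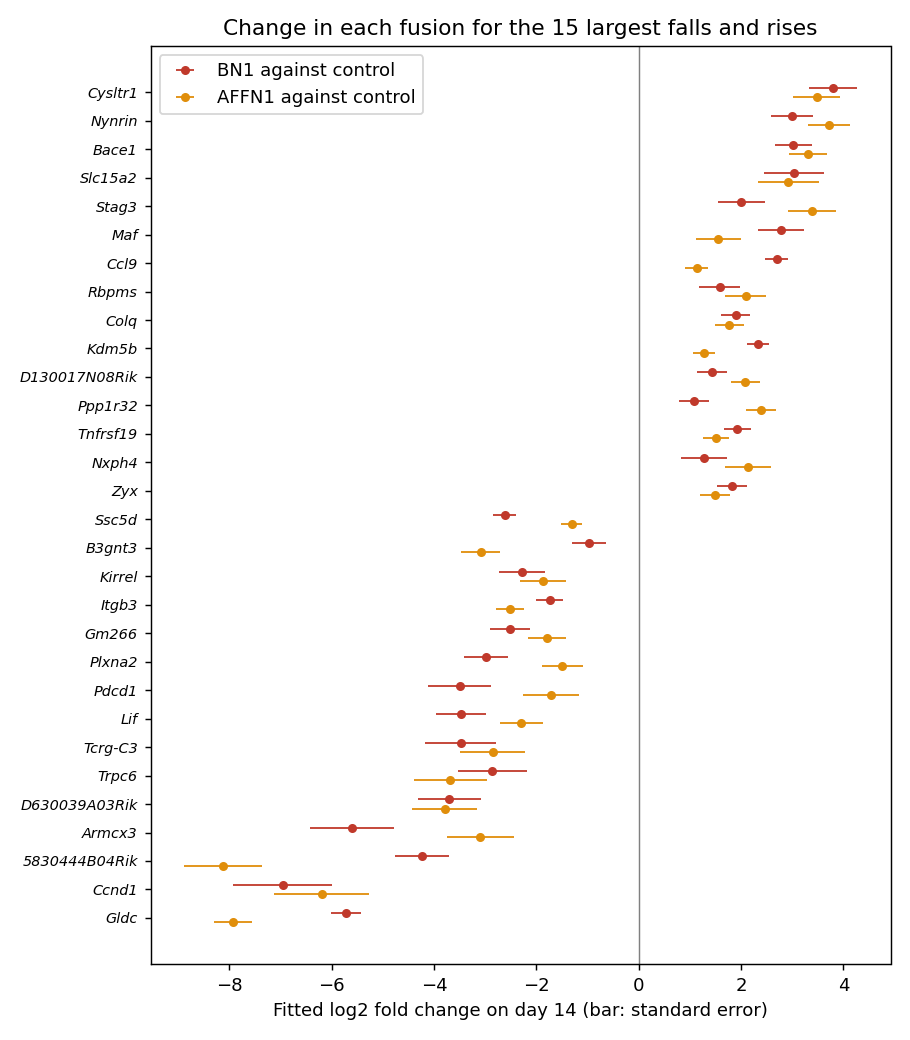
Fitted log2 fold change of BN1 against control and of AFFN1 against control on day 14, with standard error bars, for the 15 largest shared falls and the 15 largest shared rises with at least 5 CPM in the higher side. The genes were chosen for a common direction in both fusions, so the common side of 0 follows from the choice. Both sets share the 3 control libraries.

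Ccl9, a chemokine that attracts cells bearing the receptor Ccr1, rose in both fusions and more in BN1. It was at 89.1, 107 and 78.3 CPM in BN1 and 31.1, 30.2 and 30.1 CPM in AFFN1, against 17.8, 17.8 and 7.83 CPM in control. The 3 groups did not overlap. The log2 fold change was 1.91 ± 0.20 (SE, adjusted p = 0.004, edgeR) for the fusions together, and 1.56 ± 0.21 for BN1 against AFFN1 (adjusted p = 0.0361). Its start region (GRCm38.p6, chr11:83578587-83578886, minus strand, RefSeq) is printed because it is the shared rise that passed between the fusions, with CANNTG in capitals.
Ccl9: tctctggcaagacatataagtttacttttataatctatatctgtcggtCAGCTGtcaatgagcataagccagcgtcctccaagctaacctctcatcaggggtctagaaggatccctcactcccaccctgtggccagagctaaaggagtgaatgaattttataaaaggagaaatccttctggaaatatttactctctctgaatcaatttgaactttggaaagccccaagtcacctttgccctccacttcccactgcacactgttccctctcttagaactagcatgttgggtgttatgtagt
It holds 1 CANNTG, which begins 202 bases before the start.

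Most B-lineage genes had fitted changes above 0, and few passed. Of 20 pro-B and pre-B genes tested, 3 rose and none fell, against 2.14% of all tested genes called higher. The fitted change was above 0 for 19 of the 20 and for 5654 of all 11657 tested genes, and the list's median log2 fold change was 0.28. Of 19 B-lineage transcription factor genes 2 rose (background 2.14%) and none fell, with a median of 0.24. The risers were Rag1 and Rag2, the 2 chains of the RAG recombinase, and Bst1, an NAD-hydrolysing surface enzyme, among the first list, and the transcription factor genes Foxo1 and Lef1 in the second. Rag1 was at 1018, 1034 and 1289 CPM in BN1 and 290.0, 623 and 962 CPM in AFFN1, against 168, 407 and 345 CPM in control. All BN1 libraries were above control, and AFFN1 of code 0716 was below 2 of the 3 control libraries. The log2 fold change was 1.47 ± 0.26 (SE, adjusted p = 0.0312, edgeR). Rag2 was at 161, 174 and 139 CPM in BN1 and 88.5, 125 and 137 CPM in AFFN1, against 40.9, 96.3 and 59.5 CPM in control (log2 fold change 1.11 ± 0.20 SE, adjusted p = 0.0277). Rag1 and Rag2 are adjacent and convergent on chromosome 2, with 5753 bases between them, so their start regions are given together (GRCm38.p6, RefSeq, chr2:101649483-101649782 minus strand for Rag1 and chr2:101624462-101624761 plus strand for Rag2), with CANNTG in capitals.
Rag1: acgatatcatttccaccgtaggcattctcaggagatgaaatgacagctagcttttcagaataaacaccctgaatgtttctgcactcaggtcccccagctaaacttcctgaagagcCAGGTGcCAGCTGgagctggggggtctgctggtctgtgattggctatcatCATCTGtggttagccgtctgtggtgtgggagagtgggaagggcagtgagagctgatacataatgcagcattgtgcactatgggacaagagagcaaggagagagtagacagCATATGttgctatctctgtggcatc
Rag2: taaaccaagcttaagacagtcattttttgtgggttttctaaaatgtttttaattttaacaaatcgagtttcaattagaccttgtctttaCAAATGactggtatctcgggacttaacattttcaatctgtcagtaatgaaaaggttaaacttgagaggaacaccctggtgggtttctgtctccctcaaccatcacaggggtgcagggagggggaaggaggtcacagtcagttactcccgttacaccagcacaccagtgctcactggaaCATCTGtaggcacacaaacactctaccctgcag
Rag1 holds 4 CANNTG and Rag2 holds 2, against a median of 1 over all promoters of the table. This describes the letters in these windows, and no binding was measured.

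The transcription factor Foxo1, an activator of the Rag genes, was at 282, 262 and 318 CPM in BN1 and 169, 208 and 319 CPM in AFFN1, against 150.3, 185 and 186 CPM in control. AFFN1 of code 0716 overlapped control, and the log2 fold change was 0.55 ± 0.14 (SE, adjusted p = 0.0463, edgeR). Lef1 was at 678, 785 and 642 CPM in BN1 and 505, 710.0 and 688 CPM in AFFN1, against 331, 601 and 381 CPM in control. Bst1 rose 1.45-fold. Ebf1 and Pax5, which specify and commit B cells, did not pass. Pax5 had a log2 fold change of 0.29 ± 0.10 (SE, adjusted p = 0.116). The adaptor gene Blnk was at 967, 1158 and 976 CPM in BN1 and 543, 919.6 and 981 CPM in AFFN1, against 401, 783 and 736 CPM in control, and just missed the threshold (adjusted p = 0.0591). So did Il7r, the interleukin 7 receptor chain, at 432, 424 and 583 CPM in BN1 and 290.4, 366 and 490.3 CPM in AFFN1, against 144, 343 and 316 CPM in control (adjusted p = 0.0553). Genes that passed and those that did not met at adjusted p of 0.0499 and 0.0503, so the border has little meaning for single genes. In the list of stem and multipotent progenitor regulators 2 of 13 tested genes rose, against 2.14% of all tested genes called higher. Kit, the stem cell factor receptor, was at 272, 164 and 205 CPM in BN1 and 166, 129 and 169.5 CPM in AFFN1, against 110.5, 121 and 77.6 CPM in control, with no overlap (log2 fold change 0.81 ± 0.18 SE, adjusted p = 0.039). Igf2bp3, an RNA-binding protein of fetal progenitors, rose 1.33-fold. The list of Hoxa genes and Hox cofactors had 4 tested members, and none passed. Hoxa9 was at 1.08, 1.35 and 3.26 CPM in BN1 and 0.322, 0.705 and 0.6 CPM in AFFN1, against 1.94, 0.216 and 0.777 CPM in control. Control overlapped both fusions. Every BN1 library was above every AFFN1 library, but BN1 against AFFN1 did not pass (adjusted p = 0.283, edgeR). The related cofactor gene Meis1 was at 0.969, 1.46 and 2.82 CPM in BN1, above every AFFN1 and control library, and did not pass for the fusions together (adjusted p = 0.271). Hoxa10 had no read. None of the 7 risers (Rag1, Rag2, Bst1, Foxo1, Lef1, Kit and Igf2bp3) passed without the BN1 library of code 0730 (adjusted p of 0.0509 to 0.0777), the AFFN1 library of code 0802 (0.0548 to 0.0745), the control library of code 0716 (0.107 to 0.218) or the control library of code 0802 (0.142 to 0.25), and 2 passed without AFFN1 of code 0730, 4 without control of code 0730, 5 without BN1 of code 0716 and 6 without BN1 of code 0802.

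**Figure D3:**
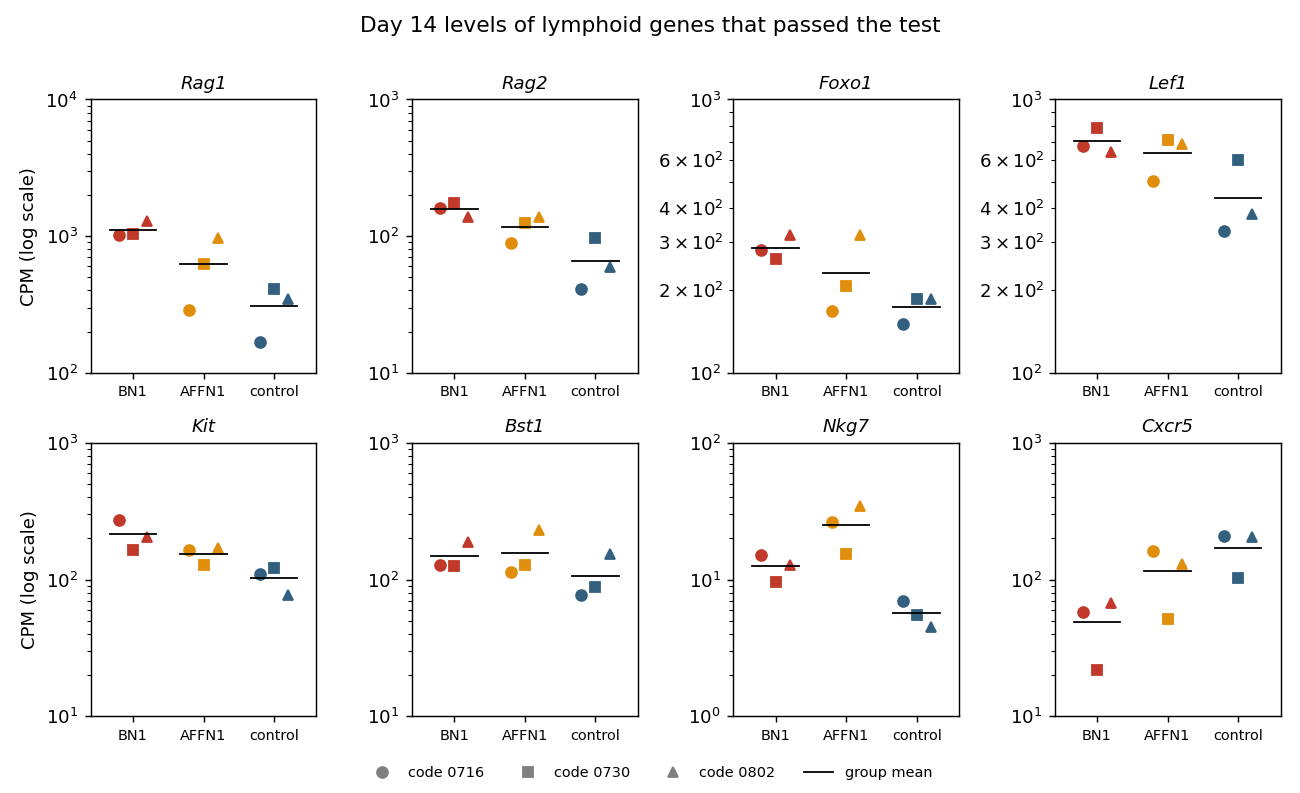
Levels on day 14 in CPM on a log scale for 8 lymphoid genes that passed the test. Points are libraries, shapes give the code and lines are group means. Rag1 is highest in BN1 (1018 to 1289 CPM), while its AFFN1 libraries spread over 290.0 to 962 CPM and its control libraries over 168 to 407 CPM.

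Molecules of lymphocyte traffic and lymphoid markers moved both ways. Cxcr5, the receptor for B-cell follicle chemokine, fell. It was at 57.6, 21.9 and 67.7 CPM in BN1 and 162, 51.8 and 129.9 CPM in AFFN1, against 207, 103 and 205 CPM in control (log2 fold change -1.28 ± 0.12 SE, adjusted p = 0.00223, edgeR). All BN1 libraries lay below all control libraries, and within each code AFFN1 lay between them. Ccl9 and Cxcr5 were the 2 of 12 tested chemokines and homing receptors that passed (background 2.14% called higher and 3.01% called lower). Cxcr4, which holds precursors in the marrow, just missed (log2 fold change 0.49 ± 0.12 SE, adjusted p = 0.0505). Of 6 tested T, NK and innate lymphoid markers 2 rose and 1 fell, against 2.14% called higher and 3.01% called lower among all tested genes. Nkg7, a cytotoxic granule protein, was at 15.2, 9.65 and 12.9 CPM in BN1 and 26.2, 15.4 and 34.3 CPM in AFFN1, against 6.96, 5.5 and 4.48 CPM in control, with no overlap. Tcf7, a transcription factor also used by early lymphocytes, was 2.05-fold higher. The glycoprotein Thy1 was at 25.9, 17.3 and 29.1 CPM in BN1 and 22.8, 21.5 and 25.7 CPM in AFFN1, against 38.7, 44.1 and 50.2 CPM in control. The sum over the list was 169 to 188 CPM in BN1, 207 to 246 CPM in AFFN1 and 188 to 229.9 CPM in control, with Cd3e, Cd7, Cd8a, Cd8b1, Gzmb, Ncr1, Tbx21 and Bcl11b at 0. No cell of another lineage was measured on its own, and the part of such cells in these changes was not tested. Socs2, a STAT5 target and feedback inhibitor of cytokine signals, fell and was at 277, 155 and 221 CPM in BN1 and 504, 192 and 246 CPM in AFFN1, against 622, 287 and 405 CPM in control. With Ccnd2 it was the pair of 17 tested interleukin 7 and Stat5 genes that passed, both lower (background 3.01%). Of the 5 genes Cxcr5, Nkg7, Tcf7, Thy1 and Socs2, Cxcr5 alone passed without the control library of code 0802 (adjusted p up to 0.213), Tcf7 and Socs2 were lost without control of code 0716, and Tcf7 without BN1 of code 0730 or without AFFN1 of code 0730 or 0802.

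Some genes of growth control and of the p53 response fell. Of 14 D cyclin and kinase inhibitor genes 3 fell and none rose, and of 16 p53 pathway genes 3 fell and none rose, against 3.01% of all tested genes called lower. Ccnd2, encoding cyclin D2, was at 247, 95.5 and 299.6 CPM in BN1 and 502, 164 and 303 CPM in AFFN1, against 529, 229 and 422 CPM in control. It fell by 0.64 on the log2 scale (adjusted p = 0.0462, edgeR). The third D cyclin, Ccnd3, did not pass, with a log2 fold change of -0.06. Cdkn2a, the locus of the inhibitor p16 and of p19Arf, which stabilises p53, was at 8.24, 5.53 and 9.71 CPM in BN1 and 15.4, 8.62 and 10.1 CPM in AFFN1, against 21.2, 13.2 and 27.9 CPM in control (log2 fold change -1.11 ± 0.16 SE, adjusted p = 0.0107, edgeR). Bax, the death effector of the Bcl2 family, was at 46.5, 45.5 and 50 CPM in BN1 and 60.4, 59.5 and 75.4 CPM in AFFN1, against 94.3, 71.1 and 97.8 CPM in control. BN1 was below control throughout, and AFFN1 of code 0802 overlapped the lowest control library. The p53 targets Phlda3 and Ccng1 fell by 1.17 and 0.49 on the log2 scale, each with no overlap of the groups. Another death gene moved the other way. Bmf, a BH3-only protein, was at 89.9, 118 and 142 CPM in BN1 and 40.8, 63.8 and 153 CPM in AFFN1, against 27.4, 46.6 and 80.1 CPM in control (log2 fold change 1.00 ± 0.19 SE, adjusted p = 0.0312). Bcl2 itself was at 21.6, 10.7 and 25.5 CPM in BN1 and 37.8, 16.2 and 28.4 CPM in AFFN1, against 139, 18.2 and 63.4 CPM in control, and did not pass (adjusted p = 0.0573). Of 22 replication and S-phase genes 2 fell (background 3.01%), Tyms (thymidylate synthase) and Ccne2 (cyclin E2), by 0.53 and 0.49 on the log2 scale, and of 20 mitosis genes none passed, with a median of 0.01. Of the 8 genes Ccnd2, Cdkn2a, Phlda3, Bax, Ccng1, Bmf, Ccne2 and Tyms, none passed without the control library of code 0802 (adjusted p of 0.118 to 0.197), 1 without control of code 0716, 2 without BN1 of code 0730, 3 without control of code 0730 or AFFN1 of code 0802, 4 without AFFN1 of code 0730 and 7 without BN1 of code 0716.

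Of 21 tested genes of the Myc and ribosome assembly list 11 fell, the most of any list, and 10 did not pass. All 21 had a fitted change below 0, as did 6003 of all 11657 tested genes, and none rose, against 3.01% of all tested genes called lower, and 9 of the 11 were shared. The median log2 fold change was -0.58 for the fusions together, -0.83 for BN1 and -0.38 for AFFN1. The list was written with earlier results of these data known, and its direction is not independent evidence. Myc was at 211, 92.4 and 234 CPM in BN1 and 370.3, 168 and 209 CPM in AFFN1, against 567, 180.1 and 334 CPM in control. The groups overlapped because the codes differed, and within each code control was highest (log2 fold change -0.70 ± 0.17 SE, adjusted p = 0.0486, edgeR). Nop58, a core protein of the snoRNPs that methylate ribosomal RNA, was at 80.8, 63.8 and 88.9 CPM in BN1 and 139, 88.2 and 81.6 CPM in AFFN1, against 182, 113 and 165 CPM in control (log2 fold change -0.77 ± 0.14 SE, adjusted p = 0.0225). Its partner Nop56 and the methyltransferase fibrillarin, Fbl, fell by 0.66 and 0.50 on the log2 scale. Odc1, the first enzyme of polyamine synthesis and a Myc target, fell by 0.81, Bop1 and Rcl1, which process ribosomal RNA, by 0.57 and 0.58, and Dkc1, the pseudouridine synthase dyskerin, and Rrp9 by 0.73 and 0.76. Nhp2 and Npm1 (nucleophosmin) passed at -0.64 and -0.45 without being shared. In Npm1 the AFFN1 library of code 0730 was at 1202 CPM and its control at 1199.8 CPM. Summed over the list the level was 3392, 2550.0 and 3502 CPM in BN1 and 5314, 3749.8 and 3241 CPM in AFFN1, against 6470, 4085 and 5267 CPM in control. Both fusions were below control in each code. None of the 11 calls held without the BN1 library of code 0730 (adjusted p of 0.0588 to 0.106), without the control library of code 0716 (0.107 to 0.28) or without the control library of code 0802 (0.15 to 0.252), and 3 held without control of code 0730, 4 without AFFN1 of code 0802, 6 without AFFN1 of code 0730, 8 without BN1 of code 0716 and 9 without AFFN1 of code 0716. With no block none of the 11 passed.

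Some metabolic genes fell as well. Of 16 serine, glycine and one-carbon genes 4 fell and none rose, against 3.01% of all tested genes called lower. Beside Gldc these were Gcsh, the lipoyl carrier of the same glycine cleavage system, the mitochondrial folate enzyme Mthfd2, and Tyms. Mthfd2 was at 18.7, 19.8 and 45.1 CPM in BN1 and 39.9, 32.9 and 44.2 CPM in AFFN1, against 79.5, 44.1 and 73.2 CPM in control (log2 fold change -1.01 ± 0.20 SE, adjusted p = 0.0372, edgeR). Gcsh was at 13, 13.1 and 14.8 CPM in BN1 and 20.7, 18.3 and 18.2 CPM in AFFN1, against 31.4, 20.9 and 22 CPM in control, without overlap. Of 23 glycolysis and hypoxia genes 6 fell (background 3.01%) and none rose, and 3 of them were shared (background 2.76%). Ldha, lactate dehydrogenase A, was at 362, 307 and 706 CPM in BN1 and 746, 495 and 932 CPM in AFFN1, against 994, 539.9 and 1544 CPM in control. The angiogenic factor Vegfa and the phosphofructokinase gene Pfkl fell by 0.80 and 0.58 on the log2 scale. The glycolytic enzyme genes Eno1, Tpi1 and Pgam1 passed at -0.60, -0.57 and -0.56 but were not shared, since AFFN1 of code 0730 was above its control in each. Of 22 oxidative phosphorylation genes 3 fell (background 3.01%), Cycs (cytochrome c), Sdhb and Cox5a, by 0.62, 0.50 and 0.48. Of the 11 calls from Gcsh to Cox5a (Gldc and Tyms not counted), none held without control of code 0716 (adjusted p of 0.113 to 0.256) or control of code 0802 (0.11 to 0.261), and 1 held without BN1 of code 0730, 2 without AFFN1 of code 0802, 3 without AFFN1 of code 0730, 5 without control of code 0730 and 10 without BN1 of code 0716 or 0802 or AFFN1 of code 0716.

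**Figure D4:**
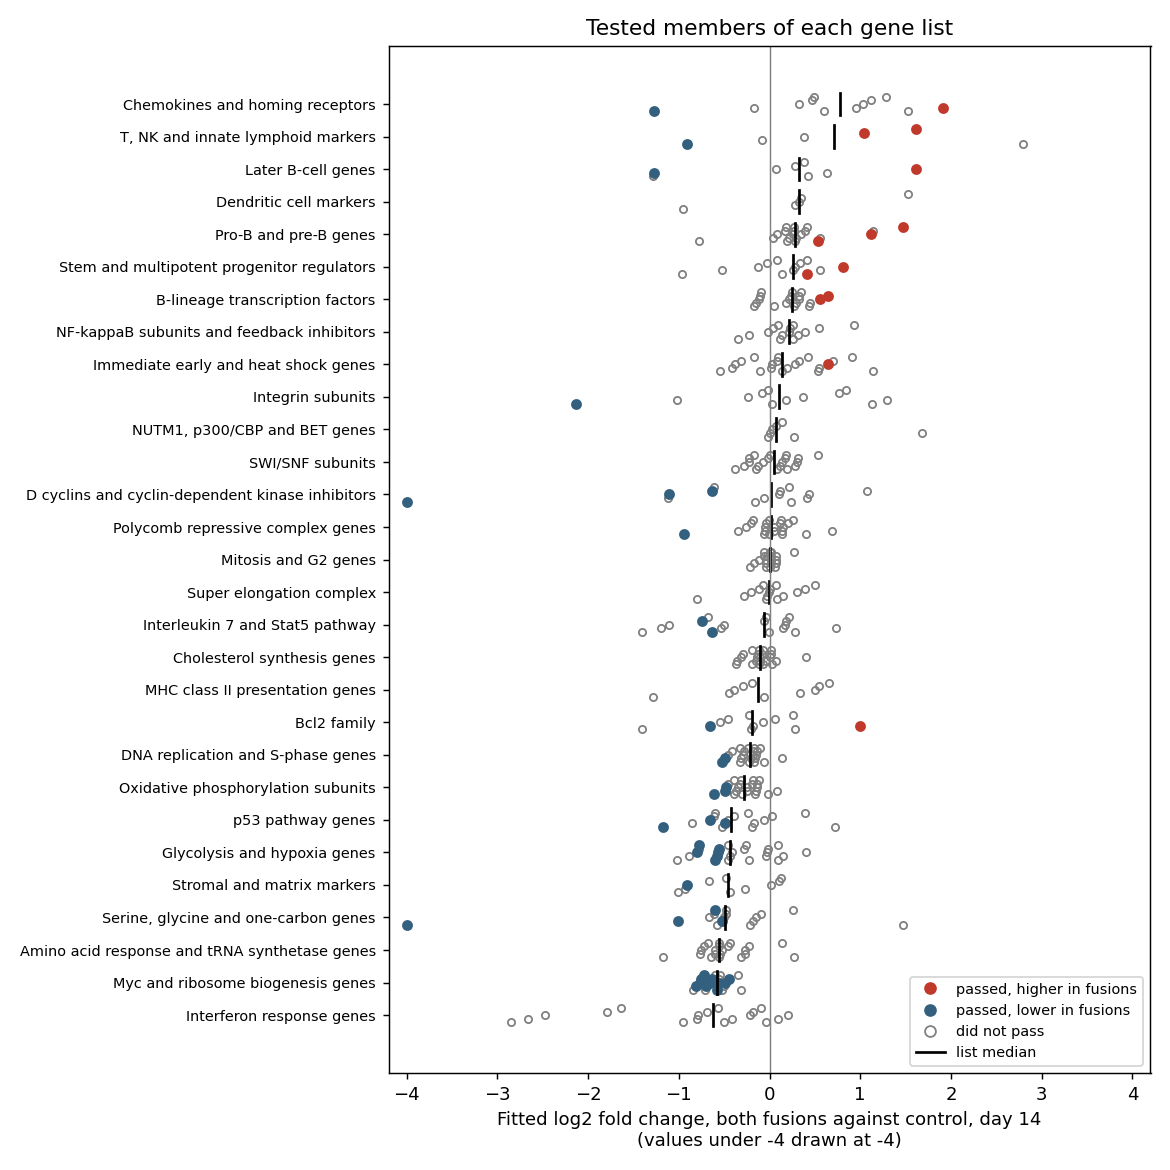
Fitted log2 fold change of both fusions against control on day 14 for the tested members of 29 gene lists, ordered by list median. Filled points passed the test, open points did not, and the vertical bars are medians. The Myc and ribosome biogenesis list holds 11 filled points below 0 and none above, while the interferon list has the lowest median and no filled point.

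Many lists held no call in the mean of the fusions. None of 18 interferon response genes passed. Their median log2 fold change was -0.63 for the fusions together, -1.35 for BN1 and 0.01 for AFFN1, with the high sums in AFFN1 and control of code 0716 given above, whose part in these medians was not tested. None of 21 amino acid response and tRNA synthetase genes passed either, although 19 were below 0 and the median was -0.55. Their nearest to the threshold was Mars, the methionyl-tRNA synthetase, at -0.56 (adjusted p = 0.0573). No call fell on 20 SWI/SNF subunit genes, on 15 super elongation complex genes, on 23 cholesterol synthesis genes, on 15 NF-kappaB genes or on 10 MHC class II genes. In the list of 22 polycomb genes 1 passed, against 2.14% of all tested genes called higher and 3.01% called lower. It was Phf19, a cofactor of the complex that methylates histone H3. It was at 9.15, 15.7 and 8.63 CPM in BN1 and 10.3, 18.3 and 10.3 CPM in AFFN1, against 17.4, 25.7 and 24.4 CPM in control (log2 fold change -0.94 ± 0.15 SE, adjusted p = 0.0127, edgeR). Of 21 immediate early and heat shock genes Jun alone passed, with the same background shares. Jun was at 159.6, 132 and 192 CPM in BN1 and 71.4, 76.5 and 157 CPM in AFFN1, against 70.8, 65.5 and 107 CPM in control (adjusted p = 0.0312, edgeR).

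The shared genes were in the main changed more in BN1. The fitted change was larger in BN1 for 179 of 234 shared rises and 277 of 322 shared falls. The same count was not taken over all tested genes, so the lean to BN1 may not be particular to the shared genes. Over all tested genes, 3516 had an unadjusted p under 0.05 for BN1 against control and 1422 for AFFN1 against control (edgeR). Median log2 fold changes were 0.95 in BN1 and 0.68 in AFFN1 for the rises, and -0.76 in BN1 and -0.44 in AFFN1 for the falls. Against control alone, 1348 genes passed in BN1 (11.6% of those tested) and 65 in AFFN1 (0.558%). Of the shared genes, 213 rises and 297 falls passed for BN1 against control, and 30 rises and 25 falls for AFFN1 against control. Among these, 25 rises and 20 falls passed in both comparisons. These counts share the control libraries, and the order of sizes was not tested. In the direct comparison, which uses no control library for its contrast, 21 genes passed (0.18%), and 3 of them were shared, namely Ccl9, Cxcr5 and Ccdc42. Ccdc42, a gene of sperm tails, was at 2.05, 0.325 and 1.57 CPM in BN1 and 6.82, 2.33 and 5.04 CPM in AFFN1, against 15.4, 2.86 and 6.93 CPM in control. BN1 was lowest and control highest in every code, and BN1 against AFFN1 gave a log2 fold change of -1.96 ± 0.30 (SE, adjusted p = 0.038, edgeR). Other genes leaned one way without passing. The fatty acid binding protein gene Fabp5 fell to 20.5, 10.8 and 27 CPM in BN1 and 37.9, 26.4 and 38.6 CPM in AFFN1, against 62.8, 30.7 and 69.1 CPM in control (BN1 against AFFN1, adjusted p = 0.0612). Mpped2 was higher in AFFN1, at 0.646, 0.217 and 0.977 CPM in BN1 and 3.87, 1.68 and 5.7 CPM in AFFN1, against 0, 0.0539 and 0.12 CPM in control, where 3 reads were counted in all (BN1 against AFFN1, adjusted p = 0.0507). Igf1, a growth factor, leaned to BN1, at 3.77, 4.77 and 3.36 CPM in BN1 and 0.268, 0.596 and 1.26 CPM in AFFN1, against 0.108, 0.485 and 0.717 CPM in control (adjusted p = 0.062). Leaving out the BN1 library of code 0730 or 0802 left no call between the fusions, and leaving out control of code 0802 left 6 and control of code 0716 90.

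The shared genes were spread over the genome. Of the shared rises 227 of 234 and of the shared falls 313 of 322 were protein coding, and so were 10987 of the 11657 genes tested. The genes that rose spanned a median of 38.2 kb and those that fell 14.6 kb, against 22.2 kb for all tested genes. Their median levels were alike, at 29.7 CPM for the rises and 29.0 CPM for the falls, against 26.4 CPM for all tested genes, as means of the fusion groups. Shared genes lay next to each other in 36 pairs of tested neighbours, of which 27 moved in the same direction and 9 in opposite ones. Neither count was set against all pairs of tested neighbours, so they describe only these pairs, and clustering was not tested. The pairs held Rag1 and Rag2 (both higher), the metallothionein genes Mt1 and Mt2 (both lower, at -0.75 and -0.87 on the log2 scale), Gsn and Stom (both higher, at 1.01 and 1.17), Tmem176a and Tmem176b (both higher, at 0.78 and 0.65) and Mc1r and Tubb3 (both lower, at -1.61 and -1.80), all named after their values were seen. Mc1r and Tubb3 lie 680 bases apart and Tmem176a and Tmem176b overlap, and the strand setting of the counting is not given, so reads of such pairs may not be fully separated.

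The day 6 libraries played no part in the choice of the shared genes. They carry no code, so they were fitted without a block. Of 12068 genes tested there, 1025 were higher in the fusions (8.49%) and 938 lower (7.77%). Of the 231 shared rises tested on day 6, 73 were called higher (31.6%) and 20 lower, and their median log2 fold change was 0.38. Of the 307 shared falls tested, 62 were called lower (20.2%) and 4 higher, and their median was -0.34, against -0.02 for all genes tested on day 6. Single day 6 libraries moved these counts. The shared rises called higher were 48 without control replicate 1 and 129 without control replicate 3, and the shared falls called lower were 36 without BN1 replicate 1, AFFN1 replicate 1 or AFFN1 replicate 2, 34 without control replicate 1, 31 without control replicate 2, 130 without AFFN1 replicate 3 and 153 without control replicate 3. All genes called on day 6, 1963 in total, were 1288 without AFFN1 replicate 1, 1305 without AFFN1 replicate 2, 1111 without control replicate 1, 1170 without control replicate 2 and 3206 without control replicate 3. Day 6 samples have another naming scheme, so a difference between days and one between experiments cannot be told apart. Among the shared genes named for the size of their change, as list members or for a difference between the fusions, 28 also passed on day 6, and 25 of these had the same direction. Kdm5b was at 75.7, 53.6 and 50.1 CPM in BN1 and 70.0, 66.5 and 52.4 CPM in AFFN1 on day 6, against 10.3, 7.47 and 10.0 CPM in control (log2 fold change 2.72, adjusted p = 1.2e-05, edgeR). All day 6 fusion libraries were above all day 6 controls. Rag1 was at 2571, 2122 and 1547 CPM in BN1 and 2934, 2723 and 1933 CPM in AFFN1, against 1283, 893 and 1178 CPM in control, with every fusion library above every control library on day 6 and above the control of its own code on day 14. Hoxa9 and Meis1, which did not pass on day 14, passed on day 6. Hoxa9 was at 17.1, 17.5 and 8.22 CPM in BN1 and 19.4, 15.6 and 15.0 CPM in AFFN1, against 0.38, 0.147 and 0.283 CPM in control (log2 fold change 5.77, adjusted p = 1.03e-05). Meis1 was at 23.0, 16.2 and 12.9 CPM in BN1 and 22.0, 22.1 and 18.2 CPM in AFFN1, against 4.12, 3.52 and 1.92 CPM in control (log2 fold change 2.59, adjusted p = 0.000166). For both genes no fusion library overlapped a control library on day 6. D630039A03Rik was at 0 CPM in all 3 BN1 libraries and 0.4, 0.119 and 0.616 CPM in AFFN1, against 11.4, 18.9 and 11.6 CPM in control. Ccnd1 was also lower on day 6, by a log2 fold change of -1.07 (adjusted p = 0.0357), at 2.93, 2.00 and 3.82 CPM in BN1 and 2.33, 2.62 and 5.97 CPM in AFFN1, against 7.41, 7.47 and 5.71 CPM in control. AFFN1 of replicate 3 overlapped the lowest control library. The 3 genes of opposite direction were Phf19, Nxph4 and Lef1. Phf19 was at 13.3, 17.5 and 12.2 CPM in BN1 and 8.67, 6.5 and 7.64 CPM in AFFN1 on day 6, against 1.08, 0.586 and 0.849 CPM in control (log2 fold change 3.61, adjusted p = 7.78e-06). Cysltr1 and Cxcr5 did not pass on day 6 (adjusted p = 0.594 and 0.0627, edgeR), and in BN1 each lay opposite to its day 14 change. Cysltr1 was at 0.193 to 0.747 CPM in BN1 and 16.8 to 23.3 CPM in AFFN1, against 1.39 to 3.55 CPM in control. Cxcr5 was at 13.9 to 14.6 CPM in BN1 and 1.27 to 3.2 CPM in AFFN1, against 1.39 to 3.66 CPM in control. The difference between the days was not tested.

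**Figure D5:**
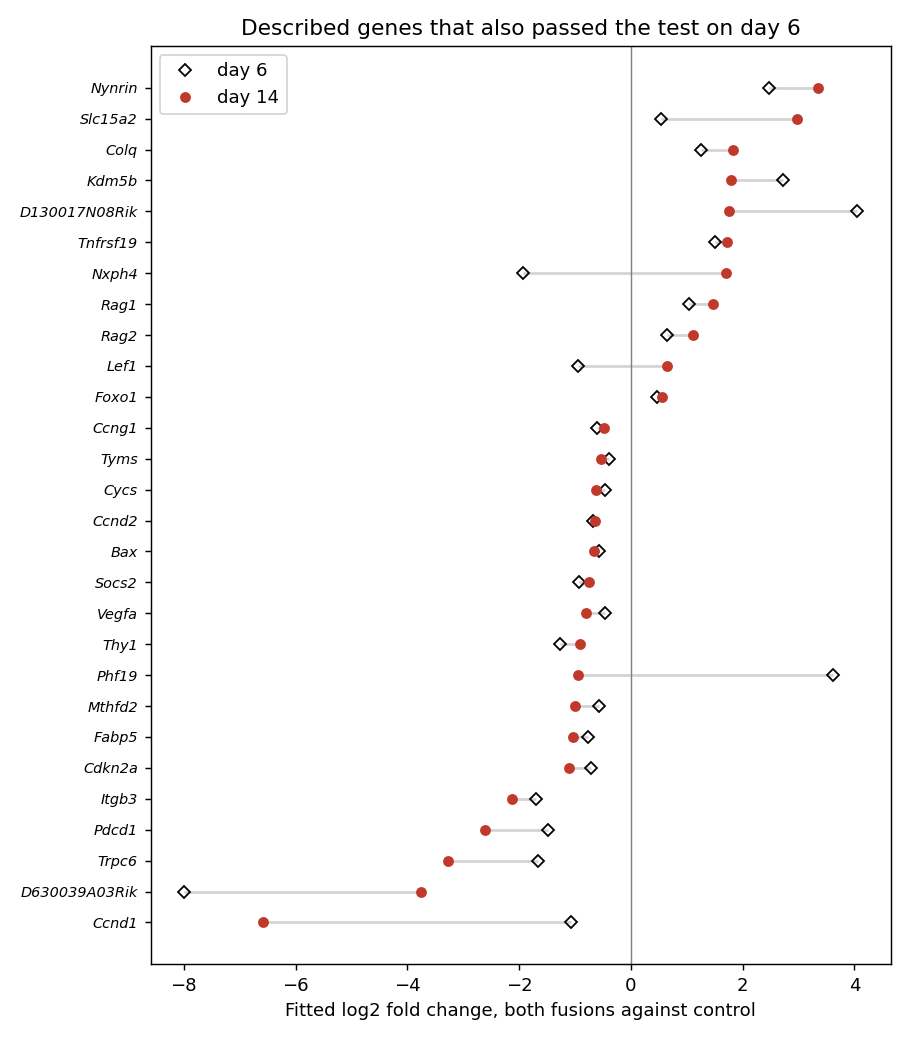
Fitted log2 fold change of both fusions against control on day 6 (open diamonds) and day 14 (filled circles) for 28 shared genes, named for size, list or a difference between the fusions, that passed on both days. The lines join the days of 1 gene. For 25 genes both points lie on the same side of 0, and for Phf19, Nxph4 and Lef1 they lie on opposite sides.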

How the data were processed

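RNA was measured in 18 libraries of sorted mouse bone marrow cells, with poly(A) selection and a stranded library kit per the labels' protocols. The authors deposited 1 table of expected counts per gene, not normalized, for 32285 genes. STAR, RSEM and DESeq2 were used with mm10, per the submitters' processing notes, with versions, annotation and strand setting not given in the sources used here. In each library 1.74 to 2.12% of genes had a count that was not whole, so the expected counts were rounded before testing. RSEM divides reads shared between similar genes, so close gene copies are uncertain. Coordinates and gene types came from GENCODE M21 on mm10, which held 32235 of the gene identifiers. Promoters came from RefSeq on GRCm38.p6, where 4 of 10 genes looked for were found.

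The 9 day 14 libraries were fitted with group and code in edgeR 4.0.16 (R 4.3.3), with filterByExpr, TMM scaling and the robust quasi-likelihood test. Two-sided p-values were adjusted over all tested genes (Benjamini-Hochberg). Standard errors are the size of the log2 fold change divided by the square root of the F statistic. Direction within codes used log2 CPM with a prior count of 2. Libraries of the same code deviated together from their group means (correlations of 0.291 to 0.614 over 9 pairs, against -0.503 to 0.0141 over 18 pairs of other codes), so the codes were taken as pairs. Day 6 was fitted on its own with group alone. Replicates differed by more than counting noise in every group (chi-square per degree of freedom of 25.4 to 122). In units of 1e6, total counts were 17.8 to 18.4 on day 14 and 14.2 to 17.7 on day 6, and single reads limit genes under 1 CPM. Scripts were tested on simulated data.

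The genes named were the 15 largest shared rises and falls with at least 5 CPM in the higher side, 13 fixed genes (among them Aff1, Brd9 and Nutm1, the Hox genes Hoxa9 and Hoxa10 with Meis1, and Flt3, Kit, Il7r, Myc, Ebf1 and Pax5), up to 6 called members of each of 33 gene lists, and the 5 shared genes with the smallest p for BN1 against AFFN1 in each direction. Genes named beyond this rule were chosen after their values were seen: Tcrg-C2, Mt1, Mt2, Gsn, Stom, Tmem176a, Tmem176b, Mc1r and Tubb3, and the list members Blnk, Cxcr4, Bcl2, Ccnd3, Mars and Igll1, which did not pass. A few results are not reported here. The members, lists and tests were chosen with earlier results of these data known. Alternatives were RLE scaling, no filter, no robust estimation, DESeq2 1.42.0, no block, stricter definitions of shared genes, and leaving out each library or code.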

Additional observations from a re-analysis of the deposited data

Results flagged for a closer look

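The effects of the 2 fusions differed by edgeR's test of BN1 against AFFN1 on day 14 for 4 of the genes described. Ccl9 was 1.56 higher on the log2 scale in BN1 than in AFFN1 (SE 0.21, adjusted p = 0.0361). Cxcr5 (-1.22, SE 0.15, adjusted p = 0.0237), Ccdc42 (-1.96, SE 0.30, adjusted p = 0.038) and Eno1 (-0.82, SE 0.13, adjusted p = 0.0482) were lower in BN1. Each kept its sign in every one of 3 codes. Without the BN1 library of code 0730 none of the 4 passed (adjusted p of 0.102 to 0.113), and with no block none passed (0.16 to 0.713).

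Phf19 and Nxph4 moved in opposite directions on the 2 days, with every fusion library of day 6 on the other side of every control library of that day. The day 6 log2 fold change was 3.61 for Phf19 and -1.94 for Nxph4, against -0.94 and 1.70 on day 14. The difference between the days was not tested.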

How the results depend on the processing

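The code decided most calls. Paired by code, 600 genes passed and 556 were shared. With no block 13 passed, all shared: Ccnd1, Gldc, 5830444B04Rik, D630039A03Rik, Itgb3, Cdk5rap1 and B4galt4 lower, and Sh2d5, Tsc22d1, Ppp1r32, Ccl9, Bace1 and Cysltr1 higher. With no block 3 genes passed for BN1, 5 for AFFN1 and 0 for BN1 against AFFN1, where 1930 had an unadjusted p under 0.05 in the blocked fit. DESeq2 gave 1148 for both fusions, 958 shared, 293 for AFFN1 and 360 for BN1 against AFFN1. With no filter 137 passed for AFFN1 and 190 for BN1 against AFFN1. A stricter rule, with every difference at least 0.5, left 108 shared genes, 65 higher and 43 lower. Asking for a call both in BN1 against control and in AFFN1 against control left 45, 25 higher and 20 lower. Leaving out 1 library or 1 code gave 5 to 945 calls for both fusions, 5 to 866 shared genes, 28 to 1543 for BN1, 1 to 263 for AFFN1, and 0 to 124 for BN1 against AFFN1. On day 6, which has no codes, leaving out 1 library gave 1111 to 3206 calls. Leaving out all day 6 libraries of 1 replicate number gave 428 to 4469. A blocked fit on day 6 gave 1676 calls, against 1963.

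RLE scaling and non-robust estimation kept the counts of calls over all genes within 1.5 times. Several named calls near the threshold were lost. With RLE scaling these were Ccnd2 (adjusted p = 0.0522, edgeR), Myc and Npm1 (adjusted p up to 0.0544), so 9 of the 11 Myc and ribosome assembly calls held. Without robust estimation these were Foxo1 (adjusted p = 0.0528), Ccnd2 (0.0506), Npm1 (0.0524), Sdhb (0.0508) and Igf1 (0.0545). With Ccnd2 lost, 1 interleukin 7 and Stat5 gene passed in place of 2. With Foxo1 lost, 1 B-lineage transcription factor gene passed in place of 2. Of the shared genes, 14 passed without each single library and 4 without each library and each code (Gldc, Ssc5d, Sla2 and Ccl9).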
